A study of Homo sapiens with 24 samples.

Results

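TMTC1, GASK1B, LUM, MRAS and RTN1 are 5 of the 57736 genes in the count table, and they were chosen by their low counts in WT control cells and their higher counts in control cells of both knockout lines. The RNA-seq libraries came from U87-T, a human glioblastoma line (U87) that carries a TERT transgene. WT cells received an empty Cas9 vector, and DAXX_KO and ATRX_KO are CRISPR knockouts in the same background, each 1 clonal line that had survived long passage and acquired features of alternative lengthening of telomeres (ALT). The DAXX series and the ATRX series each held WT and KO cells, as control (called untreated in the titles) or with the topoisomerase II poison etoposide, in 3 libraries per group, 8 groups and 24 libraries in all. The dose and time of etoposide for these libraries were not given in the sources used here. Because each knockout is 1 clone, the knockout and the clone cannot be told apart, and because the libraries are bulk RNA, fewer expressing cells and less RNA per cell cannot be told apart either. The study describes its experiments as biological duplicates or triplicates, but the labels do not say whether replicate libraries were separate cultures, so p-values measure only the spread between these libraries.

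DAXX is a histone chaperone for H3.3 and ATRX a chromatin remodeller, and the pair works on repeat-rich, silent chromatin. The 5 genes belong to unrelated families. TMTC1 is an endoplasmic reticulum (ER) membrane protein that adds O-linked mannose to cadherins. GASK1B is a Golgi-associated relative of the secretory pathway kinases. LUM (lumican) is a small leucine-rich proteoglycan that binds collagen in the extracellular matrix. MRAS is a RAS-family GTPase that joins SHOC2 and the PP1 phosphatase in a complex that activates RAF kinases upstream of ERK. RTN1 is a reticulon, a protein that curves ER membranes and is best known from neurons.

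On GRCh37, TMTC1 (ENSG00000133687) lies on the minus strand of chromosome 12 from 29653773 to 29937692, and LUM (ENSG00000139329) on the same chromosome and strand from 91496406 to 91505271. GASK1B (ENSG00000164125) lies on chromosome 4 from 159045626 to 159094470, minus strand. MRAS (ENSG00000158186) lies on chromosome 3 from 138066490 to 138124376, plus strand. RTN1 (ENSG00000139970) lies on chromosome 14 from 60062694 to 60337494, minus strand. All 5 are protein-coding genes. Antisense and other genes that overlap them held few counts, with 4 at most in any library for GASK1B-AS1 and 6 for RPL21P99 inside TMTC1.

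The bases before the start of transcription are shown because the genes were raised together and the data bear on their activity. RefSeq start sites were matched for 4 of the 5 genes, TMTC1, GASK1B, MRAS and RTN1, with 10 start windows in all. The 250 bases upstream of the first-listed start are printed 5′ to 3′ on the gene's strand, with CG dinucleotides in capitals. These windows are on GRCh38.p14, at chr12:29784760-29785009 for TMTC1, chr4:158173026-158173275 for GASK1B, chr3:138348329-138348578 for MRAS and chr14:59610140-59610389 for RTN1. Counts of 3′ ends do not tell which start was used.
TMTC1: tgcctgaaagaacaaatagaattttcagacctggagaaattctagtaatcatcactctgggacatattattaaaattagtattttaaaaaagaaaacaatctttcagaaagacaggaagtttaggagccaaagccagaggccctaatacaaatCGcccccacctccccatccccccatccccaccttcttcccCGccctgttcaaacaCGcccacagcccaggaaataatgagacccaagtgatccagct
GASK1B: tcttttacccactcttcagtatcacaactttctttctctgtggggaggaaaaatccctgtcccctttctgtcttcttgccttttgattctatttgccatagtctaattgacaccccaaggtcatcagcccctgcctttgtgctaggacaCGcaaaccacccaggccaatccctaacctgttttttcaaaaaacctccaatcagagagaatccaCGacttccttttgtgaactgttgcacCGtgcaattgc
MRAS: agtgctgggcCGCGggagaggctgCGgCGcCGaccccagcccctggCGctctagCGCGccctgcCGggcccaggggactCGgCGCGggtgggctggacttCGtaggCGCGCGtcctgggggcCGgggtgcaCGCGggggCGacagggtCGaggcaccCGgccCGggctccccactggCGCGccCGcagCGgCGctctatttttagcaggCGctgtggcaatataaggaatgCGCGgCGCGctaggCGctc
RTN1: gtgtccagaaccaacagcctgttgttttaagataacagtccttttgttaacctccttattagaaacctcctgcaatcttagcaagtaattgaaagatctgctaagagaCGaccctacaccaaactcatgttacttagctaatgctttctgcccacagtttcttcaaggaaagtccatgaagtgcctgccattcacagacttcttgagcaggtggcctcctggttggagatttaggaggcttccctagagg
The window of MRAS held 34 CG dinucleotides, against 3 for TMTC1, 3 for GASK1B and 1 for RTN1, with a median of 11 over all 35116 windows of this length. Other listed starts of the same genes differed widely, with 28 at the other TMTC1 start, 2 at the other GASK1B start, 39 and 16 at the other MRAS starts, and 19 and 34 at the other RTN1 starts. The first-listed RTN1 start is an internal one, since both other windows, at chr14:59870777-59871026 and chr14:59630624-59630873, lie upstream of it on the minus strand. The printed windows follow the order of listing only. On either strand, none of the 10 windows (0) held the p53 half-site consensus, which was in 5.57% of all windows, the letters TATAAA (10.7%) or the AP-1 letters TGANTCA (6.57%). The letters GGGCGG were in 5 of the 10 windows and in 42.6% of all windows. These matches describe letters in a window and not sites in use, and at a share of 5.57% a result of 0 in 10 windows says little. The paper names TMTC1, MRAS and RTN1 among known direct targets of p53 that were raised in both knockouts. It found the largest share of p53 peaks far from start sites or between genes. Binding of p53 near the 5 genes was not tested here.

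Library totals ran from 6928950 to 13298557 counts. Levels are given as CPM, counts scaled to a common library size after TMM normalization, and a floor of 3 counts per library corresponded to 0.215 to 0.407 CPM. Levels are compared within a gene and not between genes. The targeted mRNAs followed the titles. DAXX fell from 34.5 ± 1.27 CPM (SD, n = 3) in WT control to 5.92 ± 1.08 in DAXX_KO control, and ATRX from 190 ± 5.07 to 79.4 ± 5.73 in ATRX_KO control. Although the genotype field of DAXX_KO libraries says ATRX KO, ATRX mRNA was higher in them, at 393 ± 26.6 CPM against 233 ± 14.4 in WT. Mesenchymal and glioma genes such as VIM and CD44 were abundant, but the astrocytic markers S100B (0 counts in all libraries), AQP4 (1 at most) and GFAP (6 at most) were at or near 0. SOX2 was low in control cells, at 1.64 and 0.342 CPM in WT and DAXX_KO and 4.22 and 0.111 in WT and ATRX_KO. OLIG2 was lower still, at 0.758 and 0, and 0.587 and 0.140. Of the same list, FN1 was higher in DAXX_KO (204 and 791) and lower in ATRX_KO (288 and 124), and CHI3L1 was higher in both.

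In control cells, the values that chose the genes were as follows, with no test. TMTC1 had 8, 11 and 0 counts in the WT control libraries of the DAXX series and 466, 429 and 472 in DAXX_KO. The WT libraries of the ATRX series had 6, 4 and 8 counts, against 333, 424 and 442 in ATRX_KO. The WT and KO libraries lay far apart in both series, with mean levels of 0.698 ± 0.651 and 58.1 ± 0.965 CPM (SD, n = 3) in WT and DAXX_KO, and 0.489 ± 0.171 and 32.7 ± 3.71 in WT and ATRX_KO.

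GASK1B and LUM shared a different pattern, a high level in DAXX_KO and a low one in ATRX_KO. With 0 counts in WT of the ATRX series, the rise over WT there has no upper limit, so its size is not compared between the series. GASK1B had 3, 0 and 2 counts in WT and 135, 93 and 89 in DAXX_KO. In the ATRX series it had 0 counts in all 3 WT libraries and 11, 7 and 8 in ATRX_KO. The highest of the ATRX_KO control libraries therefore stood far under the lowest of DAXX_KO.
LUM had 0, 1 and 2 counts in WT and 91, 76 and 70 in DAXX_KO. The ATRX series again had 0 counts in all 3 WT libraries and 6, 11 and 11 in ATRX_KO. Mean levels in DAXX_KO were 13.5 ± 3.27 CPM for GASK1B and 10.1 ± 1.51 for LUM (SD, n = 3), and those in ATRX_KO were 0.715 ± 0.196 and 0.761 ± 0.217.

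MRAS and RTN1 were low but countable in every WT control library. MRAS had 7 counts in each WT library of the DAXX series and 68, 65 and 84 in DAXX_KO. For ATRX, WT libraries had 4, 1 and 4 counts of MRAS, against 56, 50 and 54 in ATRX_KO. RTN1 had 13, 16 and 16 counts in WT and 129, 103 and 99 in DAXX_KO.
RTN1 in the ATRX series had 25, 18 and 29 counts in WT and 298, 366 and 342 in ATRX_KO. Its mean level was 14.1 ± 2.17 CPM in DAXX_KO and 27.5 ± 2.49 in ATRX_KO (SD, n = 3), so RTN1 was the only gene of the 5 with a higher control level in ATRX_KO than in DAXX_KO. The WT and KO control libraries did not overlap for any of the 5 genes in either series, which the choice of the genes fixes.

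**Figure D1:**
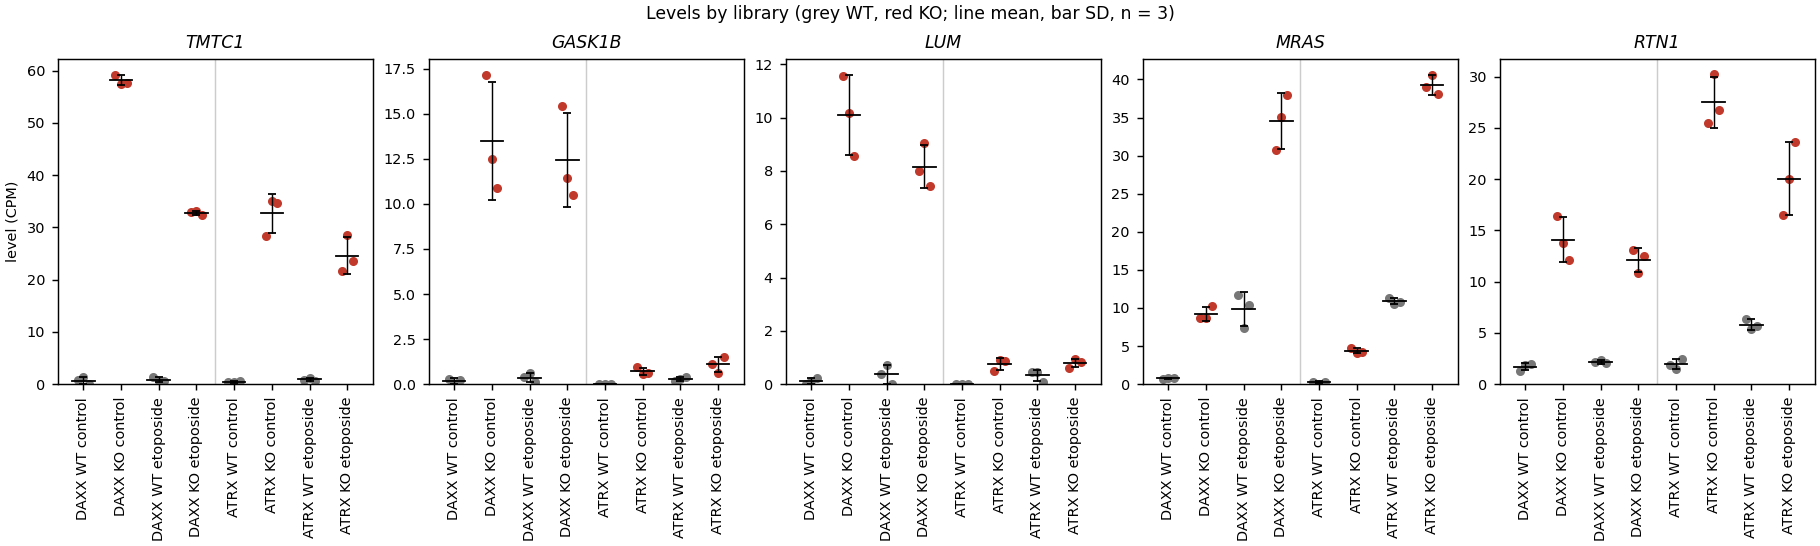
Level of each gene (CPM, linear axis from 0, one scale per gene) in the 24 libraries by group. Points are libraries, horizontal lines means and bars SD of 3 libraries. WT points lie near 0 in control cells, the MRAS points rise with etoposide in WT and KO cells, and the GASK1B and LUM points of both DAXX_KO groups lie above those of all other groups.

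Scaled to library size, the summed KO counts in control cells were 81.5 times the WT counts for TMTC1 in the DAXX series (95% interval 52.0 to 136, exact conditional method, counting error only) and 67.2 times in the ATRX series (42.3 to 114). For GASK1B the ratio in the DAXX series was 71.8 (30.5 to 223). In the ATRX series, where WT had no counts, the KO level was 2.92 times the floor of 3 counts per library. The lower 95% limit of the ratio there was 6.61. For LUM the ratio in the DAXX series was 89.5 (30.3 to 437), which rests on 3 WT counts. In ATRX_KO the level was 3.11 times the same floor, and the lower 95% limit of the ratio was 7.16. For MRAS the ratios were 11.7 (7.47 to 19.3) and 17.9 (9.21 to 39.9), and for RTN1 8.33 (6.09 to 11.6) and 14.1 (11.1 to 18.2). At an FDR of 5%, 26.7% of the 15247 genes tested were higher and 26.6% lower in control DAXX_KO against WT, and 20.8% were higher and 21.0% lower of the 16371 tested in ATRX_KO.

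The 5 genes were not the only ones of this kind. Of 2030 genes whose WT control means were no higher than the highest of the 5 in each series, 29 also had log2 differences as large as the smallest of the 5 in each series, and 24 of these are other genes. RTN1 set both limits, with WT means of 1.71 and 1.95 CPM and log2 differences of 3.05 and 3.81. Among the other 24 genes were PTGES, the prostaglandin E synthase, at 52.8 CPM in DAXX_KO and 10.2 in ATRX_KO, and the aquaporin AQP9 at 12.7 and 23.6 CPM. Some of the 24 stayed under the floor of 3 counts per library in a knockout, so their differences rest on very few counts. Examples are LINC01705 (0.127 CPM) and STMN4 (0.172) in DAXX_KO, and EDIL3-DT (0.139) in ATRX_KO. Those named here were chosen after their values were seen.

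The choice named control cells, and the libraries from etoposide-treated cells ask whether the difference between KO and WT was also present under DNA damage. They are not an independent check, because earlier results of these data were known and the clones were the same. The model also shared its filter and spread with the control libraries, and TMTC1, GASK1B and LUM passed that filter through their KO libraries. A gene let in by high KO libraries is likely to test as higher in KO. The tests of TMTC1, GASK1B and LUM, and the counts below that include them, are descriptions and not support for the choice. In DAXX_KO all 5 genes were higher than in WT under etoposide, against 27.9% of the 15247 genes tested that were higher and 25.2% that were lower. In ATRX_KO 4 of the 5 were higher, against 23.0% higher and 22.9% lower of 16371. LUM did not pass the test in ATRX_KO. Adjusted p-values are from edgeR's quasi-likelihood test with Benjamini-Hochberg adjustment over all genes tested.

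TMTC1 had 11, 5 and 5 counts in etoposide-treated WT cells of the DAXX series and 267, 316 and 288 in DAXX_KO. The ATRX series held 10, 12 and 7 counts of TMTC1 in WT and 245, 399 and 316 in ATRX_KO. The libraries did not overlap, and the log2 difference was 5.18 (SE 0.26, adjusted p = 8.36e-12) in DAXX_KO and 4.73 (SE 0.21, adjusted p = 3.47e-11) in ATRX_KO. Ordered by log2 difference over all genes tested, from the highest, the ranks in DAXX_KO were 14 for TMTC1, 20 for GASK1B, 43 for LUM, 214 for RTN1 and 476 for MRAS. In ATRX_KO they were 59 for TMTC1, 383 for GASK1B, 411 for MRAS, 439 for RTN1 and 892 for LUM.

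GASK1B had 3, 5 and 1 counts in etoposide-treated WT cells and 125, 109 and 93 in DAXX_KO, a log2 difference of 4.97 (SE 0.38, adjusted p = 2.38e-09). In the ATRX series it had 2, 3 and 4 counts in WT and 13, 9 and 20 in ATRX_KO, a log2 difference of 1.89 (SE 0.56, adjusted p = 0.0127). The libraries did not overlap in either series. The call in ATRX_KO was lost without replicate 1 of WT with etoposide (1.68, adjusted p = 0.0560) and without replicate 3 of ATRX_KO with etoposide (1.60, adjusted p = 0.0716), and the adjusted p ranged from 0.00349 to 0.0716 over 18 fits.

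LUM had 3, 6 and 0 counts in etoposide-treated WT cells and 65, 86 and 66 in DAXX_KO, a log2 difference of 4.37 (SE 0.42, adjusted p = 4.89e-08). In the ATRX series it had 5, 5 and 1 counts in WT and 7, 13 and 11 in ATRX_KO. These libraries did not overlap, but the log2 difference of 1.17 (SE 0.58, adjusted p = 0.113) did not pass the test. The ratio of summed counts was 2.34 (95% interval 1.14 to 5.16), an interval that covers counting error only and not the spread between libraries.

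MRAS had 93, 62 and 77 counts in etoposide-treated WT cells of the DAXX series and 249, 334 and 337 in DAXX_KO. The ATRX series held 126, 114 and 110 counts in WT and 442, 568 and 510 in ATRX_KO. With etoposide MRAS was no longer near 0 in WT, and the KO libraries still all lay above those of WT. The log2 differences were 1.81 (SE 0.15, adjusted p = 6.17e-09) and 1.82 (SE 0.12, adjusted p = 4.91e-09).

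RTN1 had 17, 20 and 15 counts in etoposide-treated WT cells and 106, 103 and 111 in DAXX_KO, a log2 difference of 2.45 (SE 0.21, adjusted p = 9.09e-09). In the ATRX series it had 71, 58 and 58 counts in WT and 187, 280 and 316 in ATRX_KO, a log2 difference of 1.76 (SE 0.16, adjusted p = 1.59e-07). KO and WT libraries did not overlap. The WT cells with etoposide differed between the series, at 2.03 to 2.39 CPM (DAXX series) and 5.38 to 6.37 CPM (ATRX series), a difference that was not tested.

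**Figure D2:**
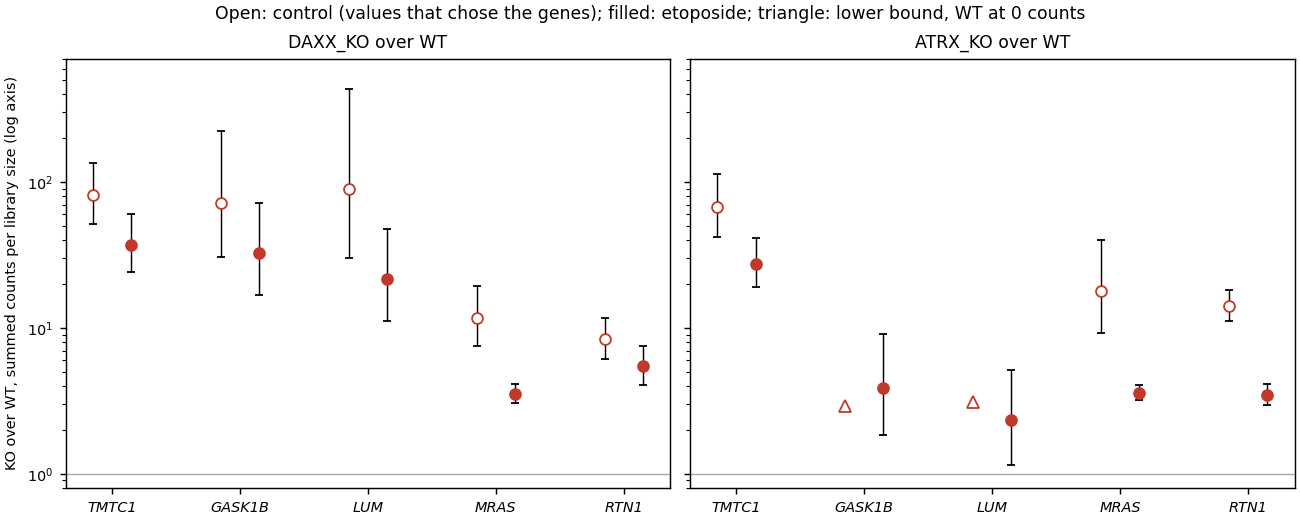
Ratio of KO to WT (log axis) from summed counts scaled to library size, for DAXX_KO on the left and ATRX_KO on the right. Open points are control cells, filled points etoposide, bars 95% intervals of counting error, and triangles lower bounds where WT had 0 counts. Every filled point lies above 1, and those of MRAS lie at 3.54 and 3.61.

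The sizes of the knockout effects under etoposide were then compared between the series in a model of all 24 libraries, in which each series has its own WT libraries. The DAXX_KO effect exceeded the ATRX_KO effect for GASK1B by 3.08 on the log2 scale (SE 0.81, adjusted p = 0.00460), and that on LUM by 3.19 (SE 0.82, adjusted p = 0.00355). TMTC1 differed by 0.44 (SE 0.50, adjusted p = 0.548), MRAS by −0.04 (SE 0.19, adjusted p = 0.912) and RTN1 by 0.67 (SE 0.27, adjusted p = 0.0531), none of which passed. Thus 2 of the 5 genes passed, GASK1B and LUM, where 34.5% of 16674 genes did. Both passed the filter on low counts through their DAXX_KO libraries, where they were high, so their tests are not independent support. For RTN1 the result turned on a library, since the adjusted p was 0.0387 without replicate 2 of DAXX_KO with etoposide (difference 0.75) and 0.0219 without replicate 3 of ATRX_KO with etoposide (0.80), in a range of 0.0219 to 0.127 over 17 fits.

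**Figure D3:**
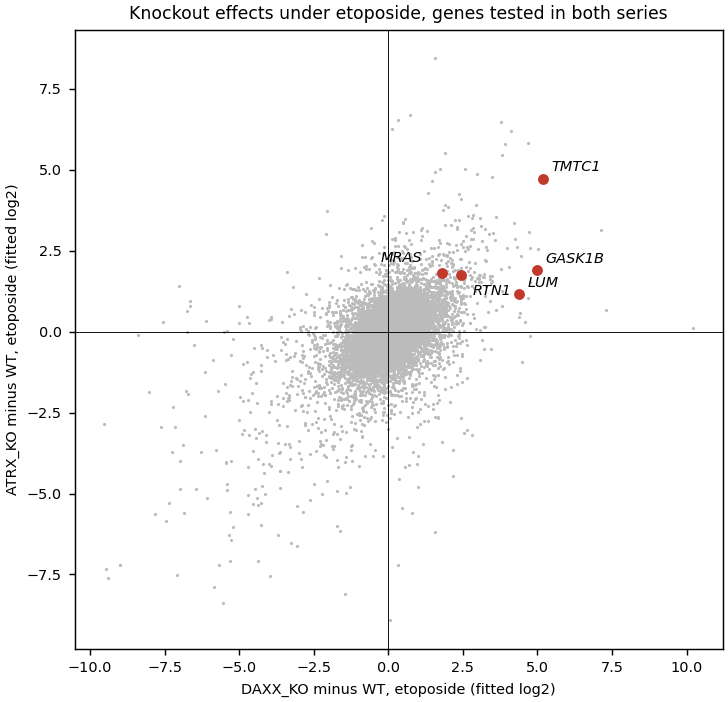
Fitted log2 difference between KO and WT under etoposide, DAXX series on the horizontal axis and ATRX series on the vertical for genes tested in both. Grey points are all genes and red points the 5 genes. TMTC1 lies near 5 on both axes, GASK1B and LUM lie far to the right but low on the vertical axis, and MRAS and RTN1 lie near 2 on both.

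The response to etoposide within a genotype is set against the control libraries that chose the genes, so it is described with no test. MRAS was higher with etoposide in every genotype, going from 0.794 to 9.87 CPM in WT of the DAXX series, from 9.21 to 34.6 in DAXX_KO, from 0.242 to 10.9 in WT of the ATRX series and from 4.38 to 39.2 in ATRX_KO. As ratios of summed counts these were 12.4 (95% interval 7.95 to 20.5) and 3.76 (3.24 to 4.38) in WT and KO of the DAXX series, and 44.6 (23.2 to 98.5) and 8.98 (7.63 to 10.6) in the ATRX series. The WT ratios start from the low control values by which the genes were chosen, a choice that favors a larger ratio in WT than in KO, so WT and KO responses are not compared.

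TMTC1 was lower with etoposide in the knockouts, at 0.565 times its control counts in DAXX_KO (0.518 to 0.616) and 0.757 times in ATRX_KO (0.695 to 0.825). RTN1 was at 0.857 (0.733 to 1.00) in DAXX_KO and 0.736 (0.669 to 0.809) in ATRX_KO, while in WT of the ATRX series it stood at 2.98 times its control counts (2.26 to 3.97) and in WT of the DAXX series at 1.30 (0.857 to 1.99). LUM was at 0.812 (0.672 to 0.980) in DAXX_KO and 1.05 (0.607 to 1.81) in ATRX_KO. GASK1B was at 0.915 (0.782 to 1.07) and 1.53 (0.915 to 2.59). The intervals here and for MRAS cover counting error only and not the spread between libraries. Control and etoposide libraries overlapped in CPM for LUM in DAXX_KO (log2 difference −0.30, SE 0.25) and for TMTC1 in ATRX_KO, although both intervals lie under 1. In WT of the ATRX series, GASK1B and LUM went from 0 counts in all control libraries to 2 to 4 and 1 to 5 counts with etoposide.

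Ranked over the 8 groups, the levels of TMTC1 fell into 2 blocks. DAXX_KO control was highest, and its libraries did not overlap the next group. DAXX_KO with etoposide, ATRX_KO control and ATRX_KO with etoposide followed at 32.9 ± 0.385, 32.7 ± 3.71 and 24.6 ± 3.57 CPM (SD, n = 3), and each overlapped its neighbour. The 4 WT groups, with means of 0.899 CPM or less, overlapped one another in order. For GASK1B and LUM, both DAXX_KO groups stood at the top and overlapped each other, and none of their libraries overlapped the ATRX_KO groups, which came next. From ATRX_KO with etoposide down, each group of GASK1B and LUM overlapped the next. For MRAS every etoposide group had a higher mean than every control group. ATRX_KO and DAXX_KO with etoposide were at the top and did not overlap. WT with etoposide of the ATRX series, WT with etoposide of the DAXX series and DAXX_KO control followed, and each overlapped only its neighbour in this order. ATRX_KO control and the WT controls of the DAXX and ATRX series came last, and none of these overlapped. For RTN1 the order was ATRX_KO control, ATRX_KO with etoposide, the DAXX_KO groups (which overlapped each other), WT with etoposide of the ATRX series, and the other 3 WT groups, which overlapped in order.

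Over the 24 libraries, GASK1B and LUM had the most alike patterns among the 5, with a Pearson correlation of 0.967 in log2 CPM, and the pair TMTC1 and RTN1 followed at 0.899. The other pairs lay between 0.609 and 0.806. The libraries share genotype and treatment, so these values are descriptions. Of all genes tested in both series, the 3 most like TMTC1 were the endolysosomal channel gene TPCN1 (0.967), HECA (0.966) and the polarity gene PARD3B (0.960). Those most like GASK1B were the secreted olfactomedin-family gene OLFML3 (0.982), the adaptor SKAP2 (0.968) and CYTH3 (0.968), an exchange factor for ARF GTPases. OLFML3 had the same near absence in WT control cells, at 0.264 and 0.163 CPM, and reached 18.8 CPM in DAXX_KO and 1.22 in ATRX_KO control cells.
The 3 most like LUM were LINC01050 (0.970), GASK1B (0.967) and GJA1 (0.962), the gap junction protein connexin 43. Those most like MRAS were the MAP kinase phosphatase DUSP8 (0.982), PAX8-AS1 (0.976) and SAT1 (0.974), which acetylates polyamines. SAT1 stood at 42.3 CPM in WT control cells of the DAXX series, 191 in WT with etoposide, 176 in DAXX_KO and 618 in DAXX_KO with etoposide. Those most like RTN1 were DTNA (0.969), a dystrophin-associated protein gene, AQP9 (0.951) and the interleukin-13 decoy receptor IL13RA2 (0.945), which was at 4.88 CPM in WT and 316 in ATRX_KO among controls of its series.

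Relatives of the 5 genes were listed by family and pathway, and those named are the genes with the largest called differences in each list. The counts can be read against the shares of all genes tested given above for control cells and for etoposide. Among 8 other O-mannosyl transferases and partners of TMTC1, 3 were higher and 1 lower in DAXX_KO, and 3 were higher and 2 lower in ATRX_KO, in control cells. TMEM260, which adds O-mannose to plexins, rose by 1.14 (SE 0.18, adjusted p = 2.19e-05) and 1.00 (SE 0.15, adjusted p = 4.19e-05) on the log2 scale, and POMGNT2, which extends O-mannose on dystroglycan, by 0.77 (SE 0.10) and 0.53 (SE 0.11). POMT2 rose by 0.44 (SE 0.10) and 0.46 (SE 0.08). The median of the list was 0.04 and 0.05, against 0.02 and 0.02 over all genes tested.
Of the cadherins, the acceptors of the sugar that TMTC1 adds, 2 of the 8 tested were higher and 3 lower in DAXX_KO, and 2 of 10 were higher and 3 lower in ATRX_KO, with medians of −0.18 and −0.12. CDH6 was the gene that fell most, from 96 to 121 counts per library in WT to 0 to 1 in DAXX_KO and from 252 to 277 to 0 to 2 in ATRX_KO. CDH4 was also lower, with log2 differences of −2.91 (SE 0.25) and −1.73 (SE 0.16). CDH18 passed the test in ATRX_KO, with 14 to 19 counts per library against 0 in WT, and was not tested in the DAXX series.

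Of 7 secretory pathway kinases related to GASK1B, 3 had counts enough for a test. In control cells 1 was higher and 1 lower in DAXX_KO, and 0 were higher and 3 lower in ATRX_KO, with medians of −0.09 and −0.35. With etoposide 2 were higher and 1 lower in each knockout, with medians of 0.30 and 0.39. Of all genes tested, 27.9% were higher and 25.2% lower in DAXX_KO with etoposide, and 23.0% and 22.9% in ATRX_KO. FAM20C, the Golgi kinase of secreted phosphoproteins, rose in control cells by 1.55 (SE 0.11, adjusted p = 6.29e-10) in DAXX_KO and fell by 0.32 (SE 0.11, adjusted p = 0.0242) in ATRX_KO, where it was higher with etoposide (0.87, SE 0.12, adjusted p = 1.71e-05). In control cells FAM20B, the xylose kinase of proteoglycan synthesis, was lower in both (−0.33, SE 0.10, and −0.51, SE 0.10), and FJX1 fell by 0.35 (SE 0.08) in ATRX_KO. With etoposide FAM20B was higher in both, by 0.30 and 0.39. The closest relative of GASK1B, GASK1A, had 6 counts at most in any library.
Of 16 other small leucine-rich proteoglycans, relatives of LUM, 4 passed the filter for the DAXX series and 3 for ATRX. TSKU was the single gene that passed in control cells, and it fell by 1.37 (SE 0.28, adjusted p = 4.12e-04) in DAXX_KO and rose by 0.89 (SE 0.15, adjusted p = 1.37e-04) in ATRX_KO. The collagen-binding relatives DCN and KERA had at most 5 and 1 counts in any library. List medians were 0.38 and 0.45.

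For MRAS, 19 other RAS GTPases and members of the SHOC2 and RAF complexes were tested. In control cells 6 were higher and 2 lower in DAXX_KO, and 4 were higher and 3 lower in ATRX_KO, with medians of 0.09 and 0.06. The RAF kinase gene BRAF rose by 0.88 (SE 0.13, adjusted p = 1.46e-05) and 0.71 (SE 0.14, adjusted p = 4.16e-04). ARAF and RRAS rose by 0.66 (SE 0.10) and 0.56 (SE 0.09) in DAXX_KO. Of the genes that ERK activity is known to raise, 1 was higher and 10 were lower of 15 in DAXX_KO control cells (median −0.68), where 26.6% of all genes tested were lower, and 4 were higher and 8 lower of 16 in ATRX_KO (median −0.27), where 21.0% were lower.
SPRY4, a feedback inhibitor of RAS signalling, was lower in DAXX_KO (−2.48, SE 0.22) and in ATRX_KO (−1.10, SE 0.17) on the log2 scale. DUSP4, a nuclear MAP kinase phosphatase, fell by 2.65 (SE 0.13) in ATRX_KO, and SPRY1 had 7 to 17 counts per library in WT and 0 to 3 in ATRX_KO, a difference that passed. The ERK phosphatase DUSP6 fell by 0.92 (SE 0.11) in DAXX_KO and rose by 2.43 (SE 0.09) in ATRX_KO, and it is named here after its values were seen. With etoposide, 5 of these ERK output genes were higher and 6 lower in DAXX_KO, and 7 were higher and 3 lower in ATRX_KO. The medians were −0.29 and 0.14. Of all genes tested, 27.9% were higher and 25.2% lower in DAXX_KO with etoposide, and 23.0% and 22.9% in ATRX_KO.
Of 15 other ER-shaping genes, relatives of RTN1 by function, 6 were higher and 6 lower in DAXX_KO control cells, and 2 were higher and 4 lower in ATRX_KO, with medians of 0.01 and −0.15. REEP2 rose by 1.61 (SE 0.16), RTN2 by 1.34 (SE 0.48) and REEP6 by 1.29 (SE 0.25) in DAXX_KO, and none of these 3 passed in ATRX_KO control cells. The RTN2 difference (adjusted p = 0.0255) rests on few counts, 3 to 6 per library in WT and 7 to 17 in DAXX_KO. With etoposide REEP2 passed in ATRX_KO in the other direction (−0.83, SE 0.18, adjusted p = 0.00120).

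**Figure D4:**
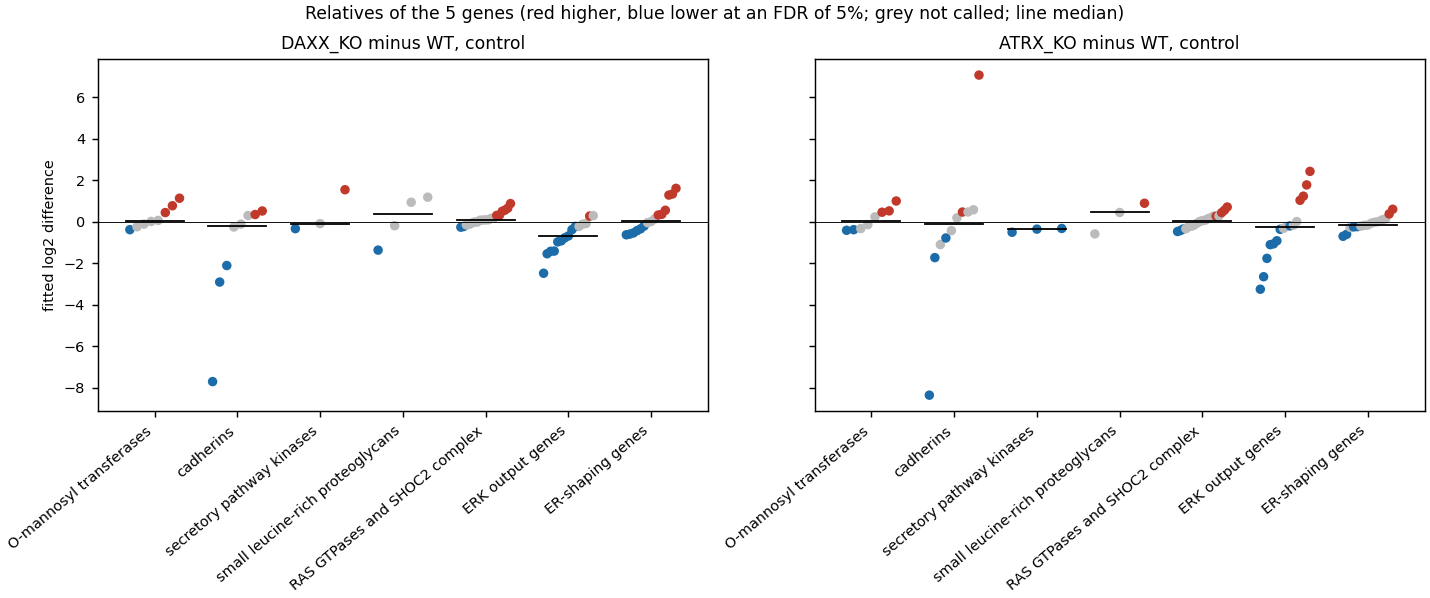
Fitted log2 difference between KO and WT in control cells for the relatives of the 5 genes, one column per list, DAXX_KO on the left and ATRX_KO on the right. Red points are higher and blue points lower at an FDR of 5%, grey points are not called, and lines are list medians. The ERK output genes have 10 blue points in DAXX_KO and 8 in ATRX_KO, and the other list medians lie between −0.35 and 0.45.

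The neighbours of the 5 genes on the chromosome were taken as the 3 nearest tested genes on each side. Of 30 neighbours, 8 were higher and 9 lower in DAXX_KO control cells, and 9 were higher and 4 lower in ATRX_KO. Over all genes tested, 26.7% were higher and 26.6% lower in DAXX_KO control cells, and 20.8% and 21.0% in ATRX_KO. Without replicate 2 of ATRX_KO control, 8 in place of 13 neighbours passed in the ATRX series. With etoposide, 10 were higher and 7 lower in DAXX_KO, and 15 were higher and 1 lower in ATRX_KO, beside 27.9% and 25.2%, and 23.0% and 22.9%, of all genes tested. Medians were −0.15 and 0.17 in control cells and 0.01 and 0.31 with etoposide, and no neighbour moved by more than 2.69 on the log2 scale.
Around TMTC1, FAR2 was higher in both knockouts, by 0.70 and 0.89 in control cells and by 1.12 and 1.92 with etoposide. In ATRX_KO with etoposide all 6 neighbours of TMTC1 passed as higher, from 0.39 for IPO8 to 1.92 for FAR2, and in DAXX_KO with etoposide FAR2, IPO8 (0.81) and CAPRIN2 (0.45) were higher and CCDC91 (−0.57) lower. Around GASK1B, TMEM144 was 28.3 kb away and higher by 1.25 and 1.02 in control cells, and CTSO, a cathepsin gene 2171 kb away, was higher by 2.69 (adjusted p = 4.90e-08) and 0.87 (adjusted p = 0.00396). Around LUM, the calcium pump gene ATP2B1, 1393 kb away, was higher by 0.59 and 1.08, and its antisense gene ATP2B1-AS1 by 0.78 and 1.19, while BTG1 on the other side was lower by −0.67 and −0.43. The neighbours of MRAS and RTN1 that passed in DAXX_KO control cells were all lower, ARMC8 (−0.60) and DBR1 (−1.03) for MRAS and JKAMP (−0.82), L3HYPDH (−0.32), PCNX4 (−0.58) and DHRS7 (−0.49) for RTN1. In ATRX_KO with etoposide, ARMC8 (0.47), DZIP1L (1.13), CEP70 (0.77) and PIK3CB (0.73) near MRAS and PCNX4 (0.69) near RTN1 were higher, and L3HYPDH (−0.70) was lower.

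**Figure D5:**
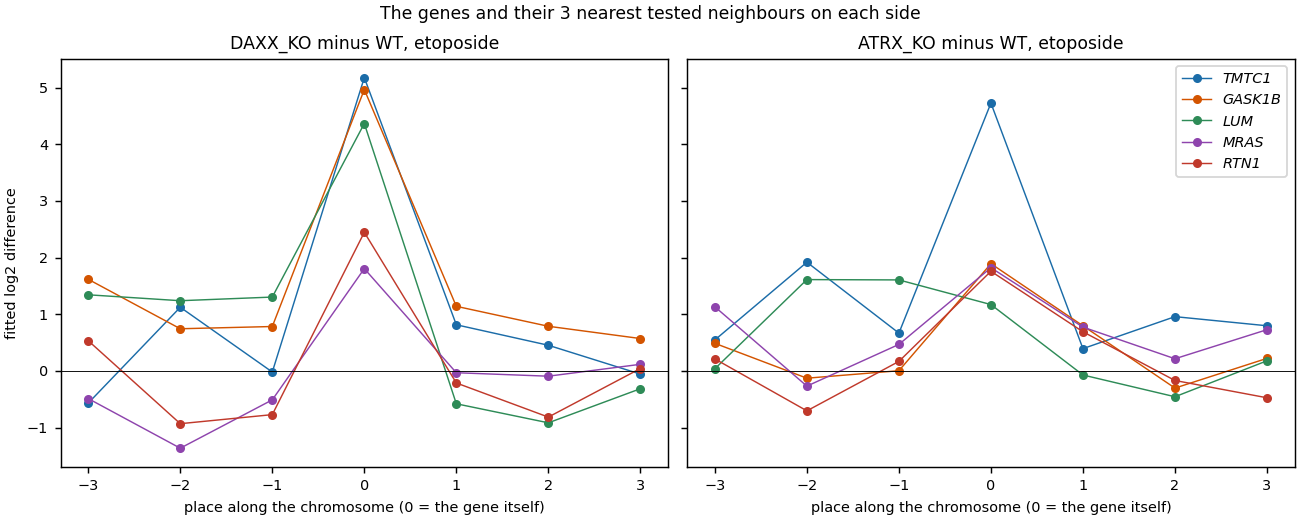
Fitted log2 difference between KO and WT under etoposide for each of the 5 genes (place 0) and its 3 nearest tested neighbours on each side, in order along the chromosome and not to distance. In DAXX_KO every line peaks at place 0, and in ATRX_KO the line of LUM does not, with ATP2B1 and ATP2B1-AS1 at 1.61 beside LUM at 1.17.

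RTN1 is best known from neurons and LUM from fibroblasts, so markers of those cells were read in the same libraries. The summed level of 8 neuronal markers was lower in the knockouts, at 98.9 to 116 CPM in WT control and 55.6 to 64.5 in DAXX_KO, and at 140 to 143 and 26.9 to 33.6 in the ATRX series. The neuronal sum followed ELAVL4, at 63.9 and 0.166 CPM in WT and DAXX_KO and 99.9 and 0.107 in WT and ATRX_KO, while SNAP25 was higher in both knockouts (5.30 and 18.2, 2.66 and 5.46), SYT1 in DAXX_KO (29.9 and 36.0) and SYP in ATRX_KO (3.08 and 6.68). STMN2 and DCX had 7 and 10 counts at most in any library. The sum of 9 fibroblast markers was also lower in the knockouts, at 686 to 751 CPM in WT and 466 to 588 in DAXX_KO, and at 710 to 803 and 359 to 390 in the ATRX series. Its members went both ways, with THY1 lower (153 and 4.62 CPM, 173 and 0.190), COL1A1 lower (416 and 260, 431 and 124), COL1A2 higher (131 and 231, 127 and 230) and ACTA2 higher (7.79 and 18.8, 8.56 and 14.8), and PDGFRB higher in DAXX_KO (10.5 and 29.1). COL3A1, DCN and POSTN had at most 5, 5 and 1 counts in any library. Of 6 immune markers only CD68 was abundant, with summed levels of 17.7 to 41.7 CPM over all libraries, and the sum of 4 endothelial markers was 1.27 CPM at most. The part of these markers in the results was not tested, and NEFL and PECAM1 were not analysed here.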

How the data were processed

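RNA-seq libraries of U87-T cells (24 libraries, 8 groups of 3) were made by the authors with a QuantSeq 3′ mRNA kit and read as single-end runs of 75 bases. The authors aligned reads with STAR and deposited estimated counts per Ensembl gene from RSEM on GRCh37, as whole numbers without normalization. The submitters' processing notes name RSEM 1.2.3 and DESeq2. Groups were taken from sample titles.

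Symbols and positions came from GENCODE release 44 on GRCh37 (55501 of 57736 genes, 98.8% of counts). The counts went into edgeR 4.0.16 (R 4.3.3, TMM, filterByExpr at min.count 10 and min.total.count 15), with 12 libraries of a series in a quasi-likelihood model of 4 groups and all 24 in a model of 8 groups for differences between series. P-values were adjusted by Benjamini-Hochberg over all genes tested, at an FDR of 5%. The SE was the log2 difference divided by the square root of F. All 5 genes passed the filter in both series. TMTC1, GASK1B and LUM passed through their KO libraries, where they were high, since too few WT libraries held enough counts. CPM used TMM factors of 0.921 to 1.08.

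The members and lists were chosen with earlier results of these data known. Genes named beside the 5 were DAXX and ATRX, the 3 with the highest Pearson correlation of log2 CPM (prior count 2) to each, the nearest tested neighbours, and the 3 with the largest called log2 difference per list. Upstream sequences came from RefSeq on GRCh38.p14, and no coordinates were converted. Replicates differed beyond counting error (chi-square per degree of freedom 2.16 to 17.1). Alternatives were RLE factors, library totals, no filter, a replicate block, other sets of libraries, DESeq2 1.42.0, Spearman correlation and leaving out each library. Plots used matplotlib 3.10.9 (Python 3.11.15).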

Additional observations from a re-analysis of the deposited data

Results flagged for a closer look

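The knockout effects under etoposide differed between the series for 2 of the 5 genes, by the test of the difference itself in a model of all 24 libraries. Of all 16674 genes tested, 34.5% passed the same test, so the count of 2 is near the background. For LUM the DAXX_KO effect was larger than the ATRX_KO effect by 3.19 on the log2 scale, and for GASK1B by 3.08. All 3 DAXX_KO libraries lay above all 3 ATRX_KO libraries in CPM for both genes. The difference passed in each of 17 fits of LUM, with adjusted p from 4.19e-04 to 0.0266, and of GASK1B, with adjusted p from 0.00117 to 0.0363 (edgeR quasi-likelihood test or DESeq2, Benjamini-Hochberg adjustment). Both effects rest on WT libraries of 0 to 6 counts. In the main fit both genes passed the filter on low counts through their DAXX_KO libraries, where they were high. The 17 fits also share most of their libraries, so they are not independent support.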

How the results depend on the processing

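The number of the 5 genes called under etoposide in DAXX_KO was 5 in every alternative, and in ATRX_KO it was 3 to 4, with 3 when only etoposide libraries were fitted, where GASK1B and LUM did not pass the filter on low counts. With each library left out in turn, the genes called under etoposide numbered 7321 to 8295 for DAXX_KO and 6535 to 7756 for ATRX_KO, and 5160 to 5736 differed between the series. The difference between the series for MRAS changed sign without replicate 1 of WT with etoposide in the DAXX series (0.11) and without replicate 1 of DAXX_KO with etoposide (0.04), ranged from −0.21 to 0.11 with a library left out, and passed in none of 17 fits. The neighbours called in ATRX_KO control cells numbered 8 to 14 with a library left out. With Spearman in place of Pearson correlation, 4 of the 15 most alike genes were shared. Same-numbered libraries of different groups had correlations of −0.59 to 0.22, and differently numbered ones −0.51 to 0.53, so numbers were not taken as pairs. A replicate block gave 7870, 7220 and 5662 called genes for DAXX_KO, ATRX_KO and their difference, with 5, 4 and 2 of the 5 genes among them. GASK1B and LUM held at most 20 counts in any library of the ATRX series, so their values there rest on few counts.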
